A study of Saccharomyces cerevisiae BY4741 with 66 samples.

Results

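Ribosome biogenesis factors are the proteins that build ribosomes and are not themselves part of the finished particle. The 43 genes described here were taken from a fixed list of gene identifiers: snoRNP proteins, factors of the small-subunit processome, and factors of large-subunit assembly and export. They are 43 of the 6605 features that each deposited table lists, and the rule that lists them uses no measured value. All 43 matched a locus tag with the same coordinates in the RefSeq annotation of the R64 assembly, and they lie on 14 chromosomes. Coordinates below are those of R64.

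In yeast, RNA polymerase I makes a long precursor rRNA in the nucleolus. Box C/D snoRNPs methylate it and box H/ACA snoRNPs convert uridines in it to pseudouridine, while the small-subunit processome folds and cuts the part that becomes the small subunit. Helicases, scaffold proteins and GTPases mature the large subunit, and export factors carry it out of the nucleus. Building ribosomes takes a large share of the resources of a growing cell, and the genes of this pathway are known in yeast as a coregulated group that follows the growth rate and is lowered in the general stress response.

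The study was done by selective ribosome profiling in Saccharomyces cerevisiae BY4741. Ribosome footprints of the whole lysate gave a total translatome (total), and footprints of ribosomes purified with a GFP-tagged protein gave an immunopurified translatome (IP). Values per gene were analysed for 50 of 66 libraries, 25 of each fraction. They came from 15 strains, and 10 strains had replicates 1 and 2 of both fractions. Every strain carried a GFP tag on 1 subunit of a protein complex, and all cultures grew at 30 °C with shaking at 150 rpm. The strains grown in rich medium (YPD) were FAS1-GFP, FAS2-GFP, GUS1-GFP, MES1-GFP, ARC1-GFP, PFK1-GFP, PFK2-GFP, SUI2-GFP, SUI3-GFP and GCD11-GFP, with 17 totals in all. TRP2-GFP (2 totals) and TRP3-GFP (1 total) grew without tryptophan (SD-trp), and CPA1-GFP (1 total) grew without arginine (SD-arg). FAS1dMPT-GFP carried a partial deletion of FAS1 in the segment of its MPT domain, and FAS1-GFP FAS2dMPT a partial deletion of FAS2 beside the tag on FAS1. Each had 2 totals, and both grew with added fatty acids, whose base medium and amount the labels do not give. Deletion and fatty acid supply were never separated, so their effects cannot be told apart. A value per gene covers deleted and remaining sequence together, so it does not check the deletions. The labels do not say whether replicates were separate cultures, so p-values measure the spread between these samples.

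Implied depths were 1.74 to 55.9 M reads in totals and 0.544 to 31.7 M in IPs, and 73.0% to 96.5% of the reads of a total lay over the listed genes against 37.8% to 94.3% in IPs. The implied reads on a member ranged from 27.0 to 40340.2 in totals and from 15.4 to 18478 in IPs, and no member was at 0 in any library. BY4741 is a MATa strain, yet 13 of the 50 libraries had more reads on MATalpha-specific than on MATa-specific genes, 6 of them totals. FAS1-GFP total 2, labelled YPD, was closer to the TRP3-GFP total (r = 0.995 across 5038 features) than to FAS1-GFP total 1 (r = 0.936). FAS1-GFP FAS2dMPT total 2 was closer to FAS1dMPT-GFP total 2 (r = 0.977) than to its own replicate (r = 0.963), and these replicates differed in mating-type pattern. The lowest correlation of GUS1-GFP total 1 with another total was 0.801. The deposited tables also came in 2 layouts of their coordinates, and 11 totals, among them all 4 of the deletion strains but only 6 of the 17 in YPD, had the less usual one.

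Levels between genes were compared per kilobase of the listed gene span, as RPM, reads relative to the size of the library, after a scaling between libraries (scaled RPM per kb). Over the 25 totals the median member stood at 100.2 scaled RPM per kb, against 32.4 for the median of the 5038 features kept. The members spanned a wide range, from NOP1 at 798 ± 196 (SD, n = 25 totals) to DHR2 at 16.9 ± 5.42. The snoRNP proteins stood at the top and the UtpA and UtpB proteins lay close together near the bottom.

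The box C/D snoRNP proteins were led by NOP1 (YDL014W, chromosome IV, 427364 to 428347, plus strand), the fibrillarin methyltransferase. Its level in the 17 YPD totals ran from 532 to 1142 with a median of 877 scaled RPM per kb. Its partners NOP56 and NOP58, which form the core of the particle, had YPD medians of 458 and 408. Among the box H/ACA proteins, NOP10 (YHR072W-A, chromosome VIII, 241664 to 241840, plus strand), a very small core protein, had a YPD median of 800.3 with a range of 208 to 1207. The other H/ACA proteins were nearly level with each other: the pseudouridine synthase CBF5 at 490.5, GAR1 at 481 and NHP2 at 480.4. The order of these last 3 changed between libraries, with NHP2 above CBF5 in 15 of 25 totals and CBF5 above GAR1 in 17.

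The small-subunit factors fell far below the snoRNP proteins with 1 exception. NSR1 (YGR159C, chromosome VII, 806412 to 807656, minus strand), a nucleolin-like RNA-binding protein, had a YPD median of 528 scaled RPM per kb and a range of 284 to 972. The 4 UtpA proteins, which bind the nascent precursor rRNA early, had YPD medians between 62.7 for UTP4 and 75.1 for UTP15. The 4 UtpB proteins, WD-repeat proteins of the processome, lay between 58.9 for UTP21 and 65.2 for PWP2, a 1.11-fold range between them. The Mpp10 complex, whose members MPP10, IMP3 and IMP4 join the processome together, spanned 66.3 to 74.6. Within UtpA, UTP8 exceeded UTP15 in 15 of 25 totals, and within UtpB, PWP2 exceeded UTP13 in 16. The remaining small-subunit factors were less alike. EMG1, an rRNA methyltransferase, stood at 129.5, the export-linked RRP12 at 85.5, ENP1 at 84.6, UTP22 at 63.5 and the DEAH-box helicase DHR2 at 19.6.

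Large-subunit factors had YPD medians from 29.8 to 203. RLP24 (YLR009W, chromosome XII, 166537 to 167136, plus strand), which holds the place of a ribosomal protein on the precursor particle, had a YPD median of 203 scaled RPM per kb and a range of 87.0 to 239. The GTPases NOG1 and NUG1 stood at 191 and 174, and the export factor ARX1 at 126. In the Nop7-Erb1-Ytm1 complex, NOP7 (YGR103W, chromosome VII, 695417 to 697234, plus strand) had a median of 198, YTM1 of 124 and ERB1 of 102. The RNA-binding proteins NOP15 (YNL110C, chromosome XIV, 417826 to 418488, minus strand), NOP12 and NOP4 had medians of 164, 95.2 and 81.7, the rRNA methyltransferase NOP2 of 119 and the ribosomal-protein-like RLP7 of 146. The DEAD-box helicase HAS1 (YMR290C, chromosome XIII, 850074 to 851591, minus strand) stood at 173, DBP3 at 124 and SPB4 at 29.8. The Noc proteins NOC2, MAK21 and NOC3, which travel with precursors of the large subunit, stood at 93.7, 92.9 and 48.5. Of the 42 neighbouring pairs in the order of all members, 2 kept 1 order in all 25 totals and 8 in 20 or more. Most neighbours thus changed order in at least 1 total.

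NOG2 (YNR053C, chromosome XIV, 721120 to 723112, minus strand), a GTPase, stands apart for its annotation. Its listed span includes an intron that holds the snoRNA gene SNR191 (chromosome XIV, 721938 to 722211), and it was the only member that overlaps another annotated gene. Its scaled RPM was 1601 in PFK1-GFP total 1 and 529 in GUS1-GFP total 1, against a median of 204 over the YPD totals. Whether those reads came from the protein-coding part was not tested.

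**Figure D1:**
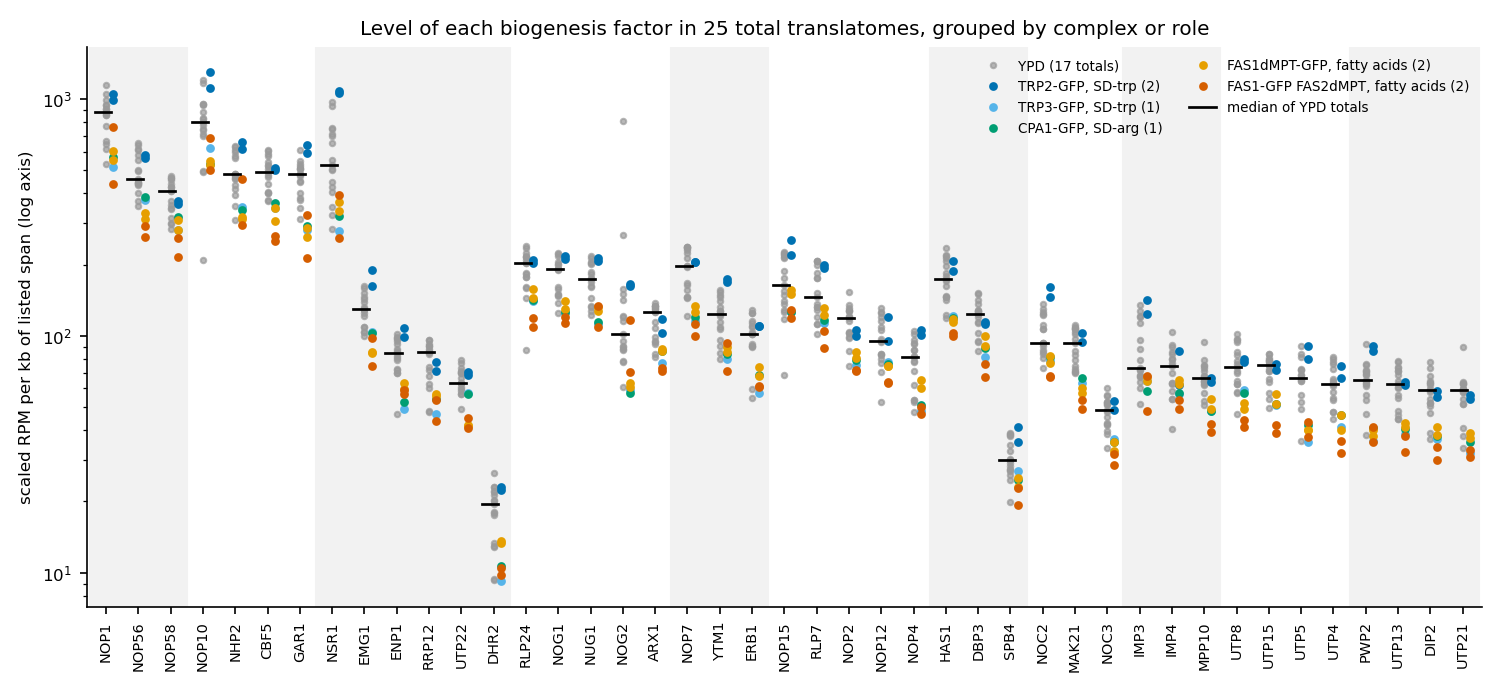
Level of each of the 43 members in the 25 totals, in scaled RPM per kb on a log axis; grey points are the 17 YPD totals, coloured points the other 8 totals, black lines the median of the YPD totals, and shaded bands separate the role groups. The snoRNP proteins and NSR1 lie highest (NOP1 median 877), DHR2 lowest (19.6), and the TRP2-GFP totals (dark blue) lie apart from the TRP3-GFP total (light blue).

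The members' level differed from library to library within a single medium, in most of them in 1 direction for most members. The sum over the 43 members was 7177 to 12769.5 scaled RPM in the 17 YPD totals, with a median of 10683. The 2 ARC1-GFP totals stood at the top with 12572 and 12769.5, and FAS1-GFP total 2 stood at the bottom with 7177. In FAS1-GFP total 2 every member lay below its mean over the YPD totals, whereas in MES1-GFP total 2 all but 1 lay above it. Other YPD totals were mixed, with 23 members below and 20 above in GUS1-GFP total 1, 26 and 17 in PFK1-GFP total 1, and 27 and 16 in GCD11-GFP total 1. FAS1-GFP total 2 gave the lowest YPD value for 22 of the 43 members, and ARC1-GFP total 2 the highest for 13. On the log2 scale the SD over YPD totals was 0.18 for UTP22 and 0.86 for NOG2, with a median of 0.29 over members and 0.32 over all 5038 features. In footprint data of whole cultures, less of a message per cell, fewer ribosomes on it and fewer cells that hold it cannot be told apart.

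**Figure D2:**
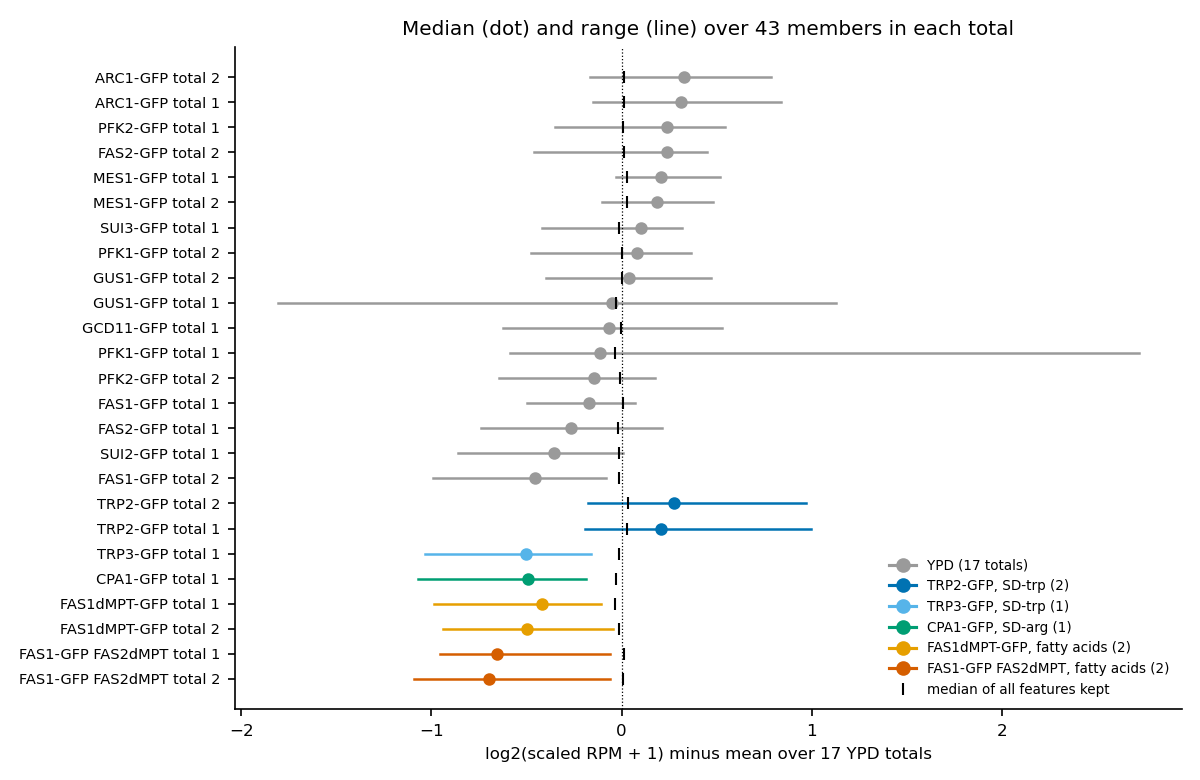
Log2 level of the members in each of the 25 totals, as the difference from the mean over the 17 YPD totals; dots are the median over 43 members, lines run from the lowest to the highest member, and black ticks mark the median of all 5038 features. The 4 totals of the deletion strains, the TRP3-GFP total and the CPA1-GFP total have medians from -0.70 to -0.42, and the 2 TRP2-GFP totals lie at 0.21 and 0.27.

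The totals of FAS1-GFP FAS2dMPT cells held less of the biogenesis factors than YPD totals. The sum over members was 6571 and 6155 scaled RPM in its 2 totals, below each of the 17 YPD totals. All 43 members had a negative log2 difference, with a median of -0.65 against 0.01 over all features, and 18 were called lower and none higher (limma, Benjamini-Hochberg adjusted p below 0.05 over 5038 features, the rule for every call here). Over all features 7.54% were called lower and 7.23% higher, 14.8% in all. With an absolute log2 difference of at least 1 also required, no member was called, against 6.95% of features (5.32% higher and 1.63% lower). For 21 of the 43 members both totals lay below every YPD total, against 9.31% of all features.

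The largest called falls in this strain were in CBF5, UTP4, NOP56 and NOP7, which belong to 4 different complexes. CBF5 (YLR175W, chromosome XII, 506134 to 507585, plus strand) had 364 and 383 scaled RPM in the 2 FAS1-GFP FAS2dMPT totals and 538 to 882 with a median of 712 in YPD totals. The groups did not overlap, and the log2 difference was -0.90 ± 0.21 (SE, adjusted p = 0.00487). UTP4 (YDR324C, chromosome IV, 1114433 to 1116763, minus strand), a UtpA protein, had 74.3 and 84.0 scaled RPM against 104 to 190.2 in YPD totals, which again did not overlap. Its log2 difference was -0.86 ± 0.23 (SE, adjusted p = 0.0138). NOP56 (YLR197W, chromosome XII, 546097 to 547611, plus strand) had 397 and 440.0 scaled RPM, below the YPD range of 536 to 989, and differed by -0.82 ± 0.22 (SE, adjusted p = 0.0167). NOP7 had 182 and 204 scaled RPM, below the YPD range of 219 to 431, and differed by -0.81 ± 0.26 (SE, adjusted p = 0.0366).

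Members of every role group were among those called lower in this strain. UtpA and UtpB had 3 of 4 called each, the box C/D proteins 2 of 3, the helicases 2 of 3 and the Noc proteins 2 of 3. The groups with the smallest share were the GTPases and export factors and the other early large-subunit factors, each with 1 of 5, and the other small-subunit factors with 1 of 6. Counted by stage, 8 of 17 small-subunit factors, 7 of 19 large-subunit factors and 3 of 7 snoRNP proteins were called lower. Whether these shares differ between groups was not tested. NOP1, the most abundant member, differed by -0.53 ± 0.28 (SE, adjusted p = 0.240), and its 2 totals of 749 and 432 scaled RPM lay on either side of the lowest YPD value of 523.

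The rest of the pathway had similar values in this strain. Of 122 other biogenesis factors 33 were called lower and none higher, with a median log2 difference of -0.60. Of 11 genes of RNA polymerase I and its initiation factors 3 were lower, with a median of -0.64, and of 137 cytosolic ribosomal protein genes 48 were lower, with a median of -0.73. Of 34 stress-induced genes 31 were called higher, with a median of 2.90, and their summed level was 22608.5 and 15276 scaled RPM against 1665 to 7413 in YPD totals. The part of this stress pattern in the members' values was not tested.

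The call of 18 members rests on the totals of a single strain and was sensitive to the libraries used. The count fell with 1 value per strain. It ranged from 3 to 24 when each total was left out in turn, with 3 without the first FAS1-GFP FAS2dMPT total, 5 without the second, 6 without GUS1-GFP total 2, 10 without PFK1-GFP total 2 and 20 without FAS1-GFP total 2. With the FAS1-GFP totals alone as reference, which carry the same tag, the median was -0.34 and none was called. That reference includes FAS1-GFP total 2, the library closest to the TRP3-GFP total. The members' median deviation from the YPD mean was -0.46 in FAS1-GFP total 2 and -0.17 in FAS1-GFP total 1. The part of this in the smaller median was not tested. With YPD totals of the same table layout the median was -0.67 and 4 were called. Without further scaling of the libraries, or with equal totals over nuclear genes, the median over all features shifted by 0.25 and 0.29 and the members stood 0.65 below it on the log2 scale in each case, with 0 and 2 called.

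FAS1dMPT-GFP totals had lower member values as well, although few passed the test. The sum over members was 7345 and 6905 scaled RPM, within and below the YPD range. All 43 members had a negative log2 difference, with a median of -0.46 against -0.02 over all features, and 1 was called lower and none higher. Over all features 3.93% were called lower and 4.41% higher, 8.34% in all, so the share of members called was no greater than the background. With an absolute log2 difference of at least 1 also required, no member was called, against 4.62% of features (3.55% higher and 1.07% lower). Both totals lay below every YPD total for 8 members, against 9.27% of all features.

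The called member was UTP22 (YGR090W, chromosome VII, 662358 to 666071, plus strand), a processome protein. Its scaled RPM was 155.0 and 156 in FAS1dMPT-GFP cells, below the YPD range of 183 to 294, and it had the smallest SD of all members over YPD totals. Its log2 difference was -0.62 ± 0.16 (SE, adjusted p = 0.0146), and in FAS1-GFP FAS2dMPT totals, which share the YPD controls, it was -0.59 ± 0.16 (SE, adjusted p = 0.0125). CBF5 had 505 and 442 scaled RPM in FAS1dMPT-GFP and a log2 difference of -0.56 ± 0.21 (SE, adjusted p = 0.0946). NOP56 had 501 and 472 scaled RPM and a difference of -0.60 ± 0.22 (SE, adjusted p = 0.0990). Their values too lay below all YPD totals without passing the test.

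Other lists in FAS1dMPT-GFP totals gave a different balance. Of 122 other biogenesis factors 4 were called lower, with a median of -0.34, and of 11 genes of RNA polymerase I and its initiation factors 1. Of 137 cytosolic ribosomal protein genes 34 were called lower, with a median log2 difference of -0.69. Of 34 stress-induced genes 20 were higher, with summed levels of 10519 and 12366 scaled RPM. Between the deletion strains the members' median log2 difference was -0.22, with FAS1-GFP FAS2dMPT lower for 36 of 43, and none was called, against 1 of 5038 features (0.0198%). At an adjusted p over 0.05 in that comparison, the data do not show that the strains differ in these genes, nor that they are alike. With the values as deposited the FAS1dMPT-GFP median was 0.00 where that over all features was 0.43, so the members' direction there holds relative to the other genes, at -0.43 on the log2 scale. With the FAS1-GFP totals alone as reference, which again include FAS1-GFP total 2, the median was -0.13. The count of called members was 0 without either FAS1dMPT-GFP total and 4 without the TRP3-GFP total, which shares the estimate of spread.

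The totals grown without tryptophan lay on opposite sides of the YPD mean for most members, although no difference between TRP2-GFP and TRP3-GFP was called. With the 3 SD-trp totals together, no member and none of the 5038 features (0%) was called against YPD totals by limma, and 0 members and 203 features had an unadjusted p under 0.05. No member had all 3 totals below every YPD total, against 0.0595% of features. The members' median log2 difference of -0.07 joined libraries with opposite values. Taken alone, the TRP2-GFP totals had a members' sum of 12325 and 12252 scaled RPM, near the top of the YPD range, and a median of 0.21 with 37 members positive. The TRP3-GFP total had a sum of 6841, below every YPD total, and a median of -0.50 with all 43 members negative. Neither gave a called feature, with 6 members and 690 of 5038 features at an unadjusted p under 0.05 in TRP2-GFP, and 19 members and 439 features in TRP3-GFP. Both TRP2-GFP totals lay above and the TRP3-GFP total below the YPD mean for 34 members, against 26.2% of features.

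NSR1 showed the widest gap between the strains. It had 1346 and 1322 scaled RPM in the TRP2-GFP totals, 344 in the TRP3-GFP total, and 353 to 1210.4 in YPD totals. The TRP2-GFP values lay above all YPD totals and the TRP3-GFP value below them. NOP1 had 1031 and 976 scaled RPM in TRP2-GFP and 507 in TRP3-GFP, and NOP56 had 852 and 879 in TRP2-GFP and 569 in TRP3-GFP. Set directly against the TRP2-GFP totals, the TRP3-GFP total was lower for all 43 members with a median of -0.76 against -0.04 over all features. None of these differences was called, and the smallest adjusted p among members was 0.117, with 21 members and 839 features at an unadjusted p under 0.05. The TRP3-GFP group is a single library, assumed in the fit to vary like the others.

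The stress-induced genes differed between these libraries too, with a summed level of 2142 and 2160.2 scaled RPM in the TRP2-GFP totals and 9070 in the TRP3-GFP total. All TRP2-GFP libraries had the MATalpha pattern and the TRP3-GFP libraries the MATa pattern. These features of the libraries moved with the members' values and their part in them was not tested. Without FAS1-GFP total 2, the YPD library most like the TRP3-GFP total, 3 members were called lower in TRP3-GFP (UTP5, PWP2 and ENP1, named after their values were seen), where 0.476% of 5040 features were lower and 1.75% higher, 2.22% in all. That control was left out for its likeness to the library tested, and with it kept no feature was called, so nothing is read from these calls.

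The CPA1-GFP total, grown without arginine, was a single library and is described without a test. Its members' sum was 7209 scaled RPM, close to the lowest YPD total, and its median log2 difference from the mean of YPD totals was -0.49 against -0.03 over all features. All 43 members were negative, and 8 lay below every YPD total, against 5.82% of all features, while none lay above, against 7.92%. A single member, NOG2, was past an absolute log2 difference of 1, at -1.07, against 6.43% of features. Without PFK1-GFP total 1, where NOG2 was high, its difference was -0.90 and no member was past 1. The summed level of the stress-induced genes was 10375 scaled RPM. CBF5 had 530.5 scaled RPM, just under the YPD range, and NSR1 had 399, inside it. This library correlated with the TRP3-GFP total at r = 0.992 across 5038 features.

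**Figure D3:**
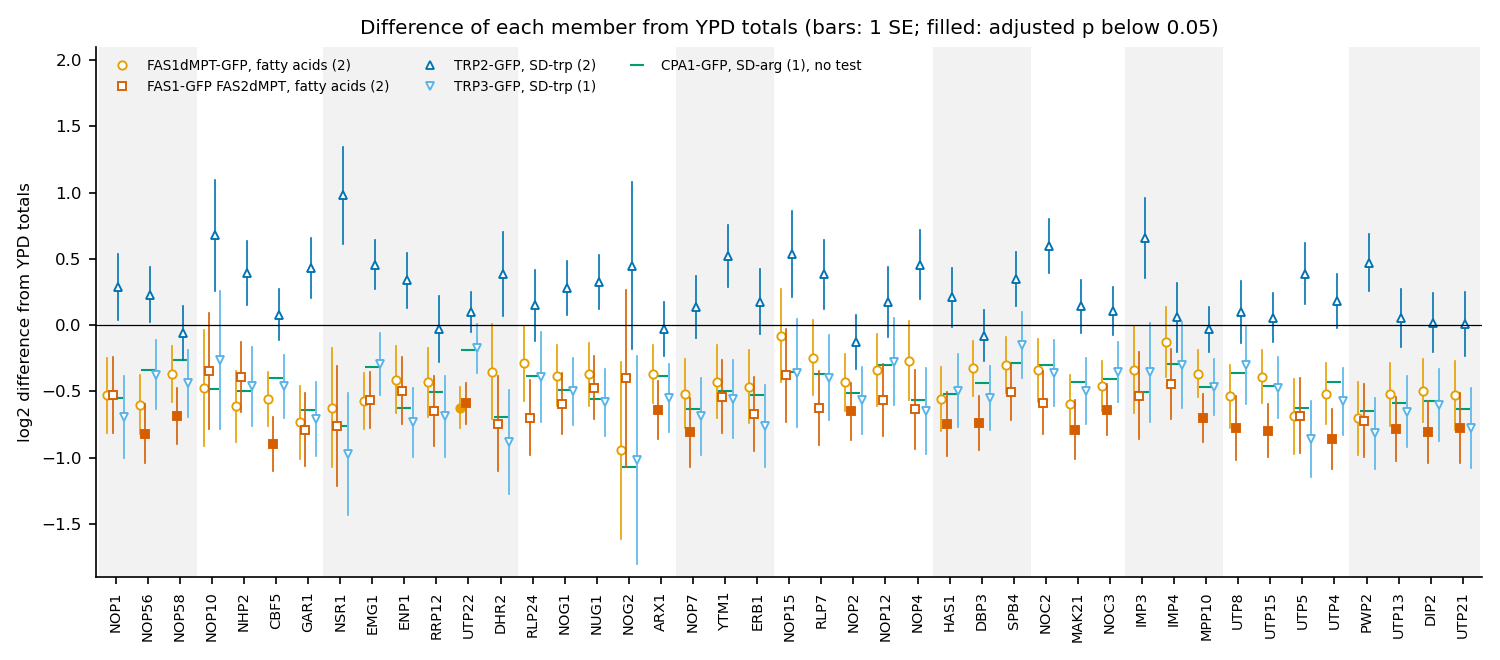
Log2 difference of each member from the YPD totals for the deletion strains, TRP2-GFP and TRP3-GFP, with bars of 1 SE and filled symbols where the adjusted p was below 0.05, and for CPA1-GFP without a test; shaded bands separate the role groups. Nearly all filled symbols (18 of 19) belong to FAS1-GFP FAS2dMPT, and TRP2-GFP is the 1 strain with most members above 0.

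The comparison of IP with total asks which messages are found with ribosomes that carry the tagged subunit on their nascent chain. Over the 15 strains, more members were called lower in the IP than higher, although the balance depended on the scaling. Of 43 members 23 were called lower in the IP and 5 higher, by limma on 1 value per strain. With equal totals over nuclear genes, 14 were lower and 16 higher where the median over all features was 0.20, and with values as deposited 33 were lower and none higher where that median was -0.30. The background was high, with 34.5% of 5130 features called lower and 31% higher, 65.5% in all. With an absolute log2 difference of at least 1 also required, no member was called, against 3.78% of features (3.68% higher and 0.0975% lower). The members' median log2 difference of IP minus total was -0.24 against -0.02 over all features.

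Most snoRNP proteins were lower in the IPs, 6 of 7 by the test, against 34.5% of all features. The share of features called lower depended on gene length. It was 74.5% under 600 nt, where NOP10 and NHP2 lie, and 50.5% from 600 to under 1200 nt, where NOP1 and GAR1 lie. From 1200 to under 1800 nt, where NOP56, NOP58 and CBF5 lie, it was 22.7%. NOP10 had a mean log2 difference of -0.77 ± 0.10 (SE, n = 15 strains, adjusted p = 2.23e-06), with values from -1.52 in GCD11-GFP to 0.03 in SUI2-GFP and a median of -0.60. NHP2 (YDL208W, chromosome IV, 87512 to 87982, plus strand), an RNA-binding core protein of H/ACA particles, had -0.70 ± 0.09 (SE, adjusted p = 1.03e-06). Both were below 0 in 14 of the 15 strains. All 3 box C/D proteins and 3 of the 4 H/ACA proteins were called lower, the exception being CBF5 at -0.09.

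Small-subunit factors went both ways. IMP3 (YHR148W, chromosome VIII, 393534 to 394085, plus strand) had -0.68 ± 0.10 (SE, adjusted p = 6.36e-06) and NSR1 had -0.66 ± 0.10 (SE, adjusted p = 7.61e-06), each below 0 in 14 of 15 strains. In contrast UTP15 (YMR093W, chromosome XIII, 454015 to 455556, plus strand) had 0.32 ± 0.11 (SE, adjusted p = 0.0160) and was above 0 in 10 strains. DHR2 (YKL078W, chromosome XI, 288845 to 291052, plus strand) had 0.31 ± 0.10 (SE, adjusted p = 0.00890) and UTP22 had 0.26 ± 0.08 (SE, adjusted p = 0.00925), above 0 in 11 and 12 strains. Of the 17 small-subunit factors 6 were called lower and 4 higher, the fourth being DIP2. Over all features 34.5% were called lower and 31% higher, so calls in both directions were common among other genes too.

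Large-subunit factors were mostly lower, with 11 of 19 called lower and 1 higher, against 34.5% and 31% of all features. All 3 members of the Nop7-Erb1-Ytm1 complex were lower, between -0.33 and -0.26. NOG1 (YPL093W, chromosome XVI, 370978 to 372921, plus strand) was the member called higher, with 0.31 ± 0.10 (SE, adjusted p = 0.0125) and values above 0 in 11 strains.

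These differences followed gene length, for the members as for the other genes. Over members, the log2 of the span and the mean IP minus total had a Spearman rho of 0.77 (43 genes), and over all 5130 features the rho was 0.63. Both are descriptions across genes measured in the same libraries. The 3 members under 600 nt had a median of -0.70, where the median over all features of that length was -0.50. The 7 members from 600 to under 1200 nt had -0.54 against -0.22, and the 13 from 1200 to under 1800 nt had -0.33 against 0.05. The 12 members from 1800 to under 2400 nt had -0.05 against 0.23, and the 8 of 2400 nt or more had 0.11 against 0.44. In each of the 5 length classes the members' median lay below that of the features of like length.

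With a smooth trend on length removed from each strain, 28 members were lower and none higher, where 25.6% of features were lower and 26.2% higher, 51.9% in all. The members' median stayed at -0.24. NOP10 then had -0.08 and was no longer called, and UTP22 turned to -0.21. UTP15, DHR2 and NOG1 kept positive values of 0.25, 0.07 and 0.13 and were not called. All 3 Noc proteins were then called lower, at a median of -0.52, and 5 of 7 snoRNP proteins, at a median of -0.25. The 122 other biogenesis factors had a median of -0.26 before this step and -0.25 after it, and the 137 ribosomal protein genes -0.62 and -0.38.

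**Figure D4:**
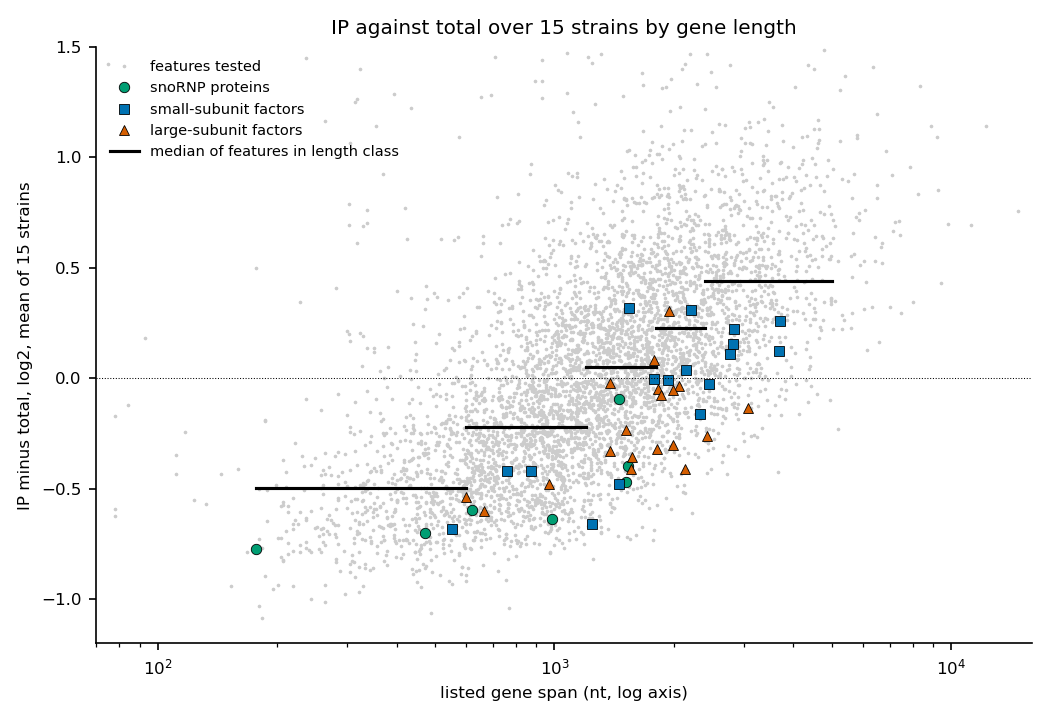
Mean over 15 strains of IP minus total (log2) against the listed gene span (log axis); grey points are the features tested, of which 78 lie outside the plotted range, black bars the median of each length class, and coloured symbols the members by stage. Members under 600 nt lie between -0.77 and -0.68, and most members lie below the bar of their length class.

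The members' median IP minus total was below 0 in 14 of 15 strains, from -0.55 in FAS2-GFP to -0.00 in FAS1-GFP, and the rho with length over members was 0.50 to 0.81 in those 14. In FAS1-GFP 22 of 43 members were below 0, and the median over all features there was -0.05, below that of the members. The second total of FAS1-GFP is the library closest to the TRP3-GFP total. That total and the second IP of FAS1-GFP also differed in mating-type pattern. Of the 34 stress-induced genes 33 were below 0 in FAS1-GFP, with a median of -0.94 and none called. The part of these features in the members' values was not tested. SUI2-GFP differed from the other strains in its median and its rho. Its median was 0.27, with 41 of 43 members above 0. The rho there was 0.17 over members and -0.02 over all features. In 27 of the 43 members SUI2-GFP gave the highest value of all strains. It is a single pair of libraries, and the only 1 of the 25 pairs whose total and IP had different table layouts. The part of that in its values was not tested.

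**Figure D5:**
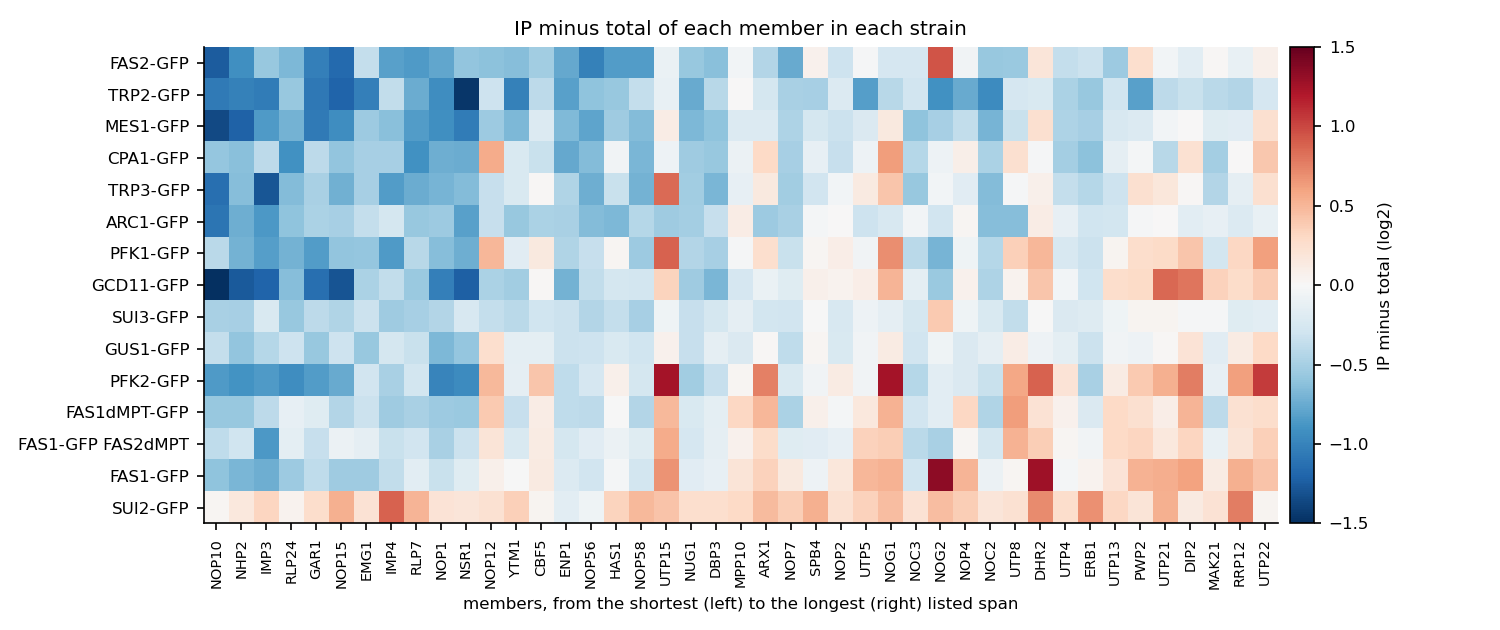
IP minus total (log2, colour scale from -1.5 to 1.5) of each member in each of the 15 strains, with members ordered by listed span and strains by their median over members. NOP10, NHP2 and IMP3 on the left are below 0 in all strains but SUI2-GFP, whose median of 0.27 puts it in the bottom row, and UTP15, NOG1 and UTP22 are red in PFK2-GFP.

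Single strains with 2 replicates gave few called members in the model without pairing of replicate numbers. With same-numbered libraries as a block the counts rose in several strains. They reached 20 in FAS2-GFP and 16 in PFK2-GFP, where 1854 and 1741 of 5137 features were called. The counts stayed at 0 in others such as GUS1-GFP. The labels do not say which model holds, and the values below are from the model without pairing. In PFK2-GFP 4 members were called higher in the IP and none lower, where 9.25% of 5137 features were higher and 5.24% lower, 14.5% in all. The share of members called higher was thus near the background. NOG1 had totals of 436 and 288 scaled RPM and IPs of 806 and 887, which differed on the log2 scale by 1.25 ± 0.26 (SE, adjusted p = 0.00514). UTP15 had 129 and 112 in the totals against 224 and 366 in the IPs, a difference of 1.25 ± 0.29 (SE, adjusted p = 0.00830). UTP22 had 226 and 183 against 377 and 471, a difference of 1.05 ± 0.24 (SE, adjusted p = 0.00734), and DIP2 (YLR129W, chromosome XII, 399657 to 402488, plus strand), a UtpB protein, had 168 and 147 against 279 and 258, a difference of 0.77 ± 0.21 (SE, adjusted p = 0.0200). In these 4 genes both IPs lay above both totals, as in 12 of 43 members against 29.7% of features, while in 11 members both IPs lay below, against 30.2%. Without the second PFK2-GFP total none was called, without the second IP 1, and without the first IP 7.

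In TRP2-GFP 5 members were called lower in the IP and none higher, where 3.31% of features were lower and 2.1% higher, 5.41% in all. NSR1 had totals of 1346 and 1322 scaled RPM and IPs of 481 and 487, with a difference of -1.46 ± 0.38 (SE, adjusted p = 0.0266). EMG1 (YLR186W, chromosome XII, 523632 to 524390, plus strand) had 123 and 144 against 62.7 and 67.1, a difference of -1.03 ± 0.28 (SE, adjusted p = 0.0313). YTM1 (YOR272W, chromosome XV, 832813 to 834195, plus strand) had 233 and 239 against 123 and 110.1, a difference of -1.01 ± 0.26 (SE, adjusted p = 0.0258). NOC2 (YOR206W, chromosome XV, 727512 to 729644, plus strand) had 342 and 312 against 149 and 193, a difference of -0.94 ± 0.26 (SE, adjusted p = 0.0356). For 37 of the 43 members both IPs lay below both totals, against 37.4% of features, and for none above, against 33.6%. The fifth was PWP2, a UtpB protein, at -0.81. With any 1 of the 4 libraries left out, none of the members was called, and none was called with equal totals over nuclear genes or with values as deposited. Of the 34 stress-induced genes 12 were called higher and none lower in the same IPs, with a median log2 difference of 1.46, and the part of this in the members' values was not tested.

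In FAS2-GFP 1 member was called lower, where 4.13% of features were lower and 2.55% higher, 6.68% in all. It was NOP56, with 667 and 972 scaled RPM in the totals and 316 and 507 in the IPs, a difference of -1.01 ± 0.29 (SE, adjusted p = 0.0437). That call was lost without the first IP or the second total. In the other 7 replicated strains no member was called by limma in either direction, where 0.0973% of 5137 features were called in MES1-GFP (0.0779% higher), 0.0389% in GUS1-GFP, 0.0195% each in FAS1-GFP and ARC1-GFP, and 0% in the other 3, and between 0 and 16 members per strain had an unadjusted p under 0.05, where 85 to 1135 features did. In MES1-GFP these were 16 members and 1135 features, and in FAS1-GFP 6 members and 1117 features. Without the second PFK1-GFP IP, members and many other features were called in that strain. Its IP group was then a single library, so nothing is read from those calls.

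Whether IP minus total differed among the 10 replicated strains was tested directly with an F test. No member was called, against 7 of 5137 features (0.136%), and 9 members and 469 features had an unadjusted p under 0.05. The smallest adjusted p among members was 0.244, for NOG1. With same-numbered libraries as a block 1 member was called, where 152 features were. For 9 members both IPs lay above both totals in PFK2-GFP and below both in TRP2-GFP, against 5.94% of features. Taken by itself, TRP2-GFP had 37 members below, and PFK2-GFP had 12 above. The members called in PFK2-GFP and those called in TRP2-GFP are therefore not shown to differ between strains by the F test without this block.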

How the data were processed

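Ribosome footprints were deposited per gene by the authors as RPM, reads scaled to library size, in 50 libraries, and the files give no counts. Per the submitters' processing notes, cutadapt 1.8.3 was used, and the aligner is not given in the sources used here. RPM steps gave whole reads within 0.01 for 13.1% to 75.5% of values, so read counts were not recovered and depths are implied. Features encoded in mitochondria (28) were left out. Libraries were scaled by a trimmed mean of log ratios, and log2(scaled RPM + 1) was fitted where the mean reached 5 scaled RPM, so fold changes of low genes are understated. limma 3.58.1 (R 4.3.3) was fitted with an intensity trend, strain as a random effect for totals (correlation 0.28), 1 value per strain for IP minus total over strains, and a 40-library model for single strains; two-sided p-values were adjusted by Benjamini-Hochberg over all features. The scripts were tested on simulated data. Tables and plots used Python 3.11.15.

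Samples were grouped by their labels. Members and gene lists were chosen with earlier results of these data known. Named genes were, per comparison, up to 4 called members with the largest rise and fall, and the member with the highest level in each role group. Alternatives covered scaling, pseudocount, filter, fold, model, layout, mating type and each library left out. No sequences are shown.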

Additional observations from a re-analysis of the deposited data

Results flagged for a closer look

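For 34 of the 43 members, both TRP2-GFP totals lay above and the TRP3-GFP total below the mean over YPD totals, against 26.2% of all features, although both strains grew without tryptophan. In the test of the difference between these strains none was called by limma, and 21 members had an unadjusted p under 0.05. The TRP3-GFP value is from 1 library.

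For 9 members, CBF5, UTP8, PWP2, DIP2, UTP21, UTP22, RRP12, NOP12 and NOG1, both IPs lay above both totals in PFK2-GFP and below both totals in TRP2-GFP, against 5.94% of all features. Taken by itself, TRP2-GFP had 37 of the 43 members below, and PFK2-GFP had 12 above, where 29.7% of features were. Whether 9 is more than these separate counts would give was not tested. In the F test among the 10 replicated strains none of the 43 members was called by limma, and 9 members had an unadjusted p under 0.05. With same-numbered libraries as a block 1 member was called.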

How the results depend on the processing

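Counts here are members called. In FAS1dMPT-GFP totals (1) the count was 0 with equal totals over nuclear genes, with values as deposited, with an absolute log2 difference of at least 1, with 1 value per strain, with FAS1-GFP totals as reference and with YPD totals of the same layout, and 6 with no strain correlation. In FAS1-GFP FAS2dMPT totals (18) it was 2 with equal totals, 0 as deposited, 0 with the fold, 2 with 1 value per strain, 5 without PFK1-GFP total 1 and the second FAS1-GFP FAS2dMPT pair, 0 with FAS1-GFP totals as reference and 4 with the same layout. In SD-trp totals (0), TRP3-GFP alone and without FAS1-GFP total 2 gave 3. Over strains, IP against total gave 0 with the fold, in both directions; with equal totals 14 were lower and 16 higher, and 0 were higher as deposited or with the length trend removed. UTP22 over strains turned to -0.041 as deposited and -0.21 with the length trend removed.

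In single strains, equal totals gave 0 in FAS2-GFP, 8 in PFK2-GFP and 0 in TRP2-GFP. Values as deposited gave 29 in FAS1-GFP, 8 in FAS2-GFP and 0 in TRP2-GFP, where 2971, 640 and 10 features were called. The fold gave 3 in TRP2-GFP. A weight for each library gave 1 in FAS1-GFP, 11 in FAS2-GFP, 30 in MES1-GFP, 23 in ARC1-GFP and 28 in TRP2-GFP. Over all features the weights called 451, 1328, 2871, 2459 and 1984, in the same order. Deviations of same-numbered libraries correlated at 0.0017 to 0.83 across features. A low correlation does not show that samples were unpaired, and the labels do not say that a number marks a shared lysate. Pairing is thus not settled, and the main model for single strains used none. The replicate block gave 1 in the F test, 3 in FAS1-GFP, 20 in FAS2-GFP, 15 in MES1-GFP, 5 in ARC1-GFP, 16 in PFK2-GFP and 17 in TRP2-GFP. Over all features the block called 152, 982, 1854, 1035, 911, 1741 and 1129, in the same order. With each library left out in turn, the count was 0 to 4 in FAS1dMPT-GFP totals, 3 to 24 in FAS1-GFP FAS2dMPT totals, 0 to 4 in FAS2-GFP, 0 to 12 in PFK1-GFP, 0 to 7 in PFK2-GFP and 0 to 0 in TRP2-GFP. The causes of these shifts were not tested. The alternatives on layout, length, TRP2-GFP or TRP3-GFP alone, FAS1-GFP total 2, NOG2 without PFK1-GFP total 1, and doubted strains with FAS1-GFP were chosen after seeing the data, and a search for promoter motifs was not run.

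Over all features, the 744 called in FAS1-GFP FAS2dMPT totals became 338 with 1 value per strain, 392 without PFK1-GFP total 1 and the second pair, 396 with the same layout and 44 against FAS1-GFP totals. The 420 in FAS1dMPT-GFP totals became 673 as deposited, 768 with no strain correlation, 97 with 1 value per strain, 248 with MATa-pattern YPD totals, 130 with the same layout and 8 against FAS1-GFP totals. In single strains the block gave 1854 in FAS2-GFP (343), 1741 in PFK2-GFP (744) and 1129 in TRP2-GFP (278), and library weights gave 1328, 466 and 1984. In the 7 strains with at most 5 features called, the block gave up to 1035 and the weights up to 2871, both in MES1-GFP. The F test (7) gave 21 with no filter and 152 with the block.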
